A study of Danio rerio with 4 samples.

Results

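The 104 transcripts described here were already present in zebrafish embryos at sphere (4 hpf), a blastula stage. Their relative abundance was at least 8 times as high at bud (10 hpf), when gastrulation ends. A transcript was counted as a member when it had at least 5 TPM in both sphere samples and the lower of its bud values was at least 8 times the higher of its sphere values. TPM is an abundance corrected for transcript length and scaled so that all transcripts of a sample sum to 1000000. The rule was met by 104 of the 24573 transcripts in the table, or 0.914% of the 11377 transcripts with at least 5 TPM in both sphere samples. All samples were whole, unperturbed wild-type embryos of the TLAB strain, in pools of 50 per sample, with 2 bud and 2 sphere samples sequenced from total RNA after removal of ribosomal RNA. By their labels the stages differ in time only, but their samples are separate pools, so collection and library may differ too. The values come from whole embryos. A higher level can therefore not be told apart as more cells with the transcript or more transcript per cell. Since TPM are shares of a fixed total, the ratios also depend on the levels of all other transcripts. They are not amounts per embryo.

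The zebrafish egg is loaded with maternal mRNAs that run the first cell divisions, while the genome of the embryo is largely silent. During the maternal-to-zygotic transition many maternal mRNAs are cleared, and transcription from the embryo's genome takes over at the blastula stages, shortly before and around sphere. An mRNA found at sphere may thus be maternal, newly made or both, and TPM do not separate these sources. Between sphere and bud the embryo gastrulates, which lays down ectoderm, mesoderm and endoderm and the body axis.

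The deposited table lists Ensembl transcript identifiers without gene names. Names could be attached to 1580 transcripts in all, and to 9 of the 104 members (8.65%). All names lie within the first 2327 of the 24573 rows of the table, which hold 9 members, so the named transcripts are one stretch of the table and not a sample spread over it. These 9 are described by name, and the other 95 by their values, 2 of them with their identifiers. The 104 members were chosen on the contrast between bud and sphere, so their levels and ratios are given as a description, without a test.

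The members moved from the middle of the sphere transcriptome to the upper end of the bud transcriptome. Their values ran from 70.4 to 3917 TPM in bud sample 1, with a median of 259 TPM, and from 68.2 to 3755 TPM in bud sample 2, with a median of 254 TPM. In sphere sample 1 they ran from 5.17 to 312 TPM, with a median of 16.7 TPM, and in sphere sample 2 from 5.05 to 301 TPM, with a median of 11.9 TPM. By stage mean, the median member stood at rank 568.5 of all transcripts at bud and at rank 9131 at sphere. At bud, 12 members were among the 100 most abundant of the 24573 transcripts and 47 among the 500 most abundant. At sphere, the corresponding numbers were 0 and 1.

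**Figure D1:**
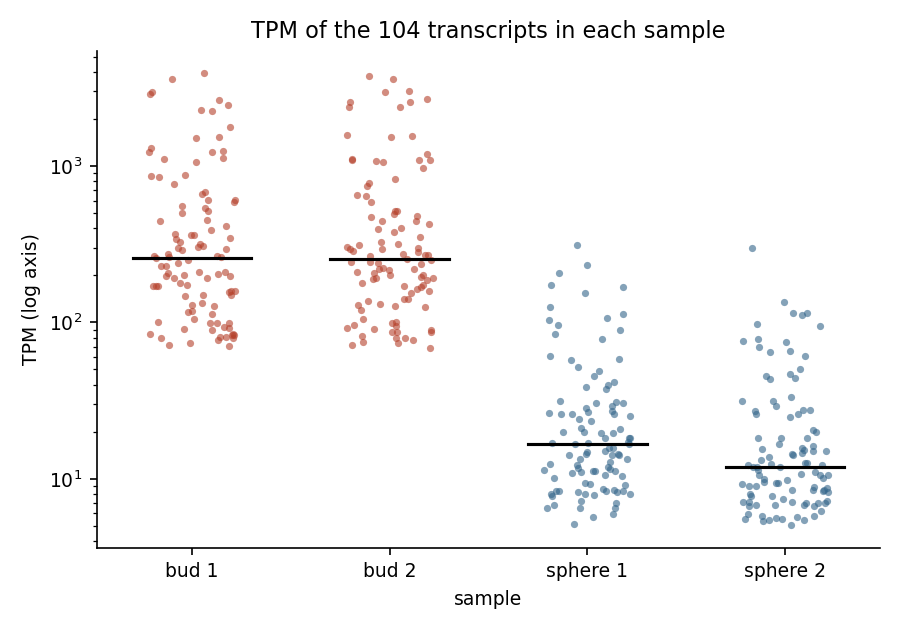
TPM of each of the 104 members (points, spread sideways for visibility) in the 2 bud and the 2 sphere samples on a log axis, with the median of each sample as a horizontal line. The bud samples had medians of 259 and 254 TPM, against 16.7 TPM in sphere sample 1 and 11.9 TPM in sphere sample 2.

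Together, the members held 5.91% and 6.06% of all TPM in the bud samples, against 0.372% and 0.274% in the sphere samples. Their share averaged 5.99 ± 0.105% at bud and 0.323 ± 0.0695% at sphere (SD, n = 2 each). Of all TPM gained by any transcript between the stage means, 13.5% was gained by these 104. The bud level of the set was unevenly divided. The 10 members with the highest bud mean held 44.9% of the TPM of the whole set at bud, and 13 members made up the first 50%.

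The ratio of the lower bud to the higher sphere value had a median of 11.2 and ran from 8.06 to 95.6. It was at least 16 in 31 members, at least 32 in 9 and at least 64 in 2. Between stage means the median ratio was 14.1. On the log2(TPM + 1) scale the median difference was 3.74 for the members and -0.78 for all 11377 transcripts of at least 5 TPM in both sphere samples, most of which were lower at bud than at sphere. A fit of all transcripts above 0.5 TPM with limma (Benjamini-Hochberg adjusted p under 0.05) called 104 of the 104 members higher at bud. The background was 37.2% of the 20332 transcripts tested, or 21.4% of those with at least 5 TPM in both sphere samples. The rule used this same contrast, so nothing is read from the members' count.

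**Figure D2:**
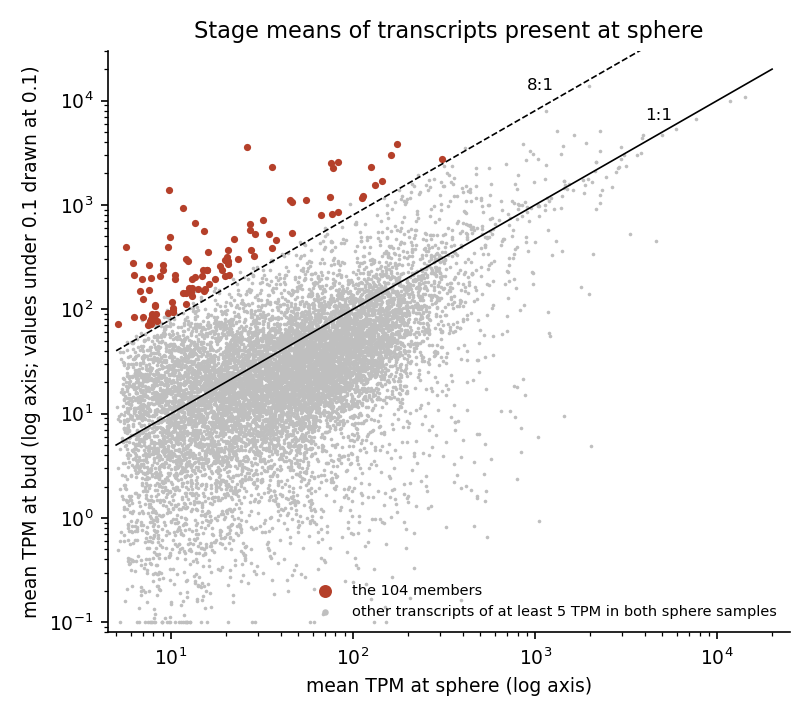
Mean TPM at bud (vertical) against mean TPM at sphere (horizontal), both on log axes, for the 104 members (red) and the other transcripts of at least 5 TPM in both sphere samples (grey), with lines at equal levels (solid) and at 8 times the sphere level (dashed). The members lie above the dashed line over the whole range of sphere means from 5.11 to 306 TPM, and grey points above it are transcripts whose single samples, unlike their means, did not meet the rule.

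The named member with the highest level was hmgn1b, which encodes a small protein of the HMGN family that binds nucleosomes and acts on chromatin compaction. It had 2278 and 2380 TPM in bud samples 1 and 2, against 174 and 77.8 TPM in sphere samples 1 and 2. Both bud samples were at least 13.1 times above both sphere samples, and the bud mean ranked 42nd of all transcripts. The sphere samples themselves were 2.24 times apart, with sample 1 higher.

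EWSR1 encodes an RNA-binding protein of the FET family with roles in transcription and splicing. It had 540 and 515 TPM in the bud samples, against 41.7 and 27.4 TPM in the sphere samples. Its bud mean was 15.24 times its sphere mean. Zebrafish have more than one copy of many such genes, and whether reads were divided between near-identical copies was not tested here.

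GNL3 and cnbpb act on growth and protein synthesis in other vertebrates. The first encodes nucleostemin, a nucleolar GTP-binding protein that is known in mammals for roles in ribosome production and in dividing stem and progenitor cells. GNL3 had 239 and 236 TPM in the bud samples, against 15.7 and 14.5 TPM in the sphere samples, a ratio of at least 15.06 between any bud and any sphere sample. The nucleic acid-binding zinc finger protein encoded by cnbpb belongs to a family that binds mRNAs and G-rich sequences. The transcript had 229 and 243 TPM at bud and 19.9 and 18.3 TPM at sphere. For these transcripts the samples of a stage lay close together, and at sphere sample 1 was 1.08 and 1.09 times sample 2.

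AK3, which encodes a mitochondrial adenylate kinase that uses GTP, had the largest ratio among the named members. It had 295 and 283 TPM in the bud samples, against 14.2 and 10.6 TPM in the sphere samples. The lower bud value was 20.0 times the higher sphere value.

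SPRY2 encodes a Sprouty protein, an intracellular antagonist of FGF and other receptor tyrosine kinase signalling whose gene is itself switched on by that signalling in many tissues. FGF signals pattern the mesoderm and the neural plate during fish gastrulation. SPRY2 had 99.5 and 106 TPM in the bud samples, against 11.01 and 9.40 TPM in the sphere samples. The bud mean was 10.1 times the sphere mean. It was the only gene of a list of 34 FGF and retinoic acid pathway genes that could be matched by name, so nothing can be said here of the rest of the pathway.

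DGCR2, which encodes a membrane protein with adhesion receptor features, was the named member nearest to both thresholds of the rule. It had 74.2 and 79.9 TPM in the bud samples, against 7.99 and 8.68 TPM in the sphere samples, a ratio of at least 8.54. It was also the only named member with the higher sphere value in sample 2.

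For the last pair of named members the sphere samples were nearly as far apart as for hmgn1b. The transcript cyyr1, for a small cysteine- and tyrosine-rich membrane protein, had 157 and 164 TPM at bud and 17.1 and 8.98 TPM at sphere. The transcript named linc-epb41l4a carries a name given to a long non-coding RNA locus, although the methods describe the reference as coding transcripts. It had 149 and 173 TPM at bud and 16.6 and 8.47 TPM at sphere. In both cases the bud samples agreed more closely than the sphere samples, which differed by 1.91 times for cyyr1 and 1.96 times for linc-epb41l4a.

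**Figure D3:**
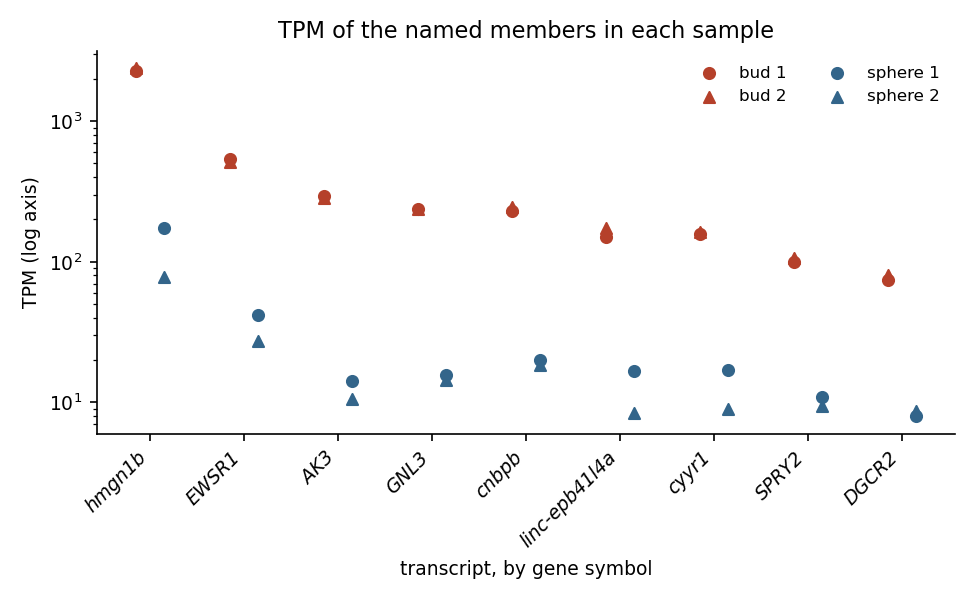
TPM on a log axis for the 9 members with a gene name, ordered by bud mean, with bud samples in red and sphere samples in blue, and sample 1 as circles and sample 2 as triangles. All bud values lie at least 8.54 times above the sphere values of the same transcript, and the circle lies above the triangle at sphere for 8 of the 9.

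Of the 95 members without a name, 2 are given by identifier as those with the highest level and the largest ratio of all. ENSDART00000058965 had the highest bud level, with 3917 and 3755 TPM in the bud samples, against 233 and 115 TPM in the sphere samples. ENSDART00000145330 had the largest ratio, with 1230 and 1529 TPM in the bud samples, against 12.9 and 6.74 TPM in the sphere samples. It stood at rank 95 of all transcripts by bud mean, and both of its bud values were at least 95.6 times its sphere values. The member with the next largest ratio had 3597 and 3604 TPM at bud, against 40.0 and 11.96 TPM at sphere, so that its sphere samples differed by 3.35 times, the widest gap of any member.

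ENSDART00000058965 and ENSDART00000145330 stood in consecutive rows of the table. Whether rows that are neighbours in the table are also neighbours in the genome was not tested. Chromosomes were compared only for named rows with a unique symbol in the RefSeq annotation of assembly GRCz12tu, within the first 2327 rows. There, 696 of 706 neighbouring pairs had both genes on the same chromosome. A shared chromosome does not make genes neighbours, and no rate for distant rows was computed. The consecutive rows of these members lie outside that stretch and were not checked. One further pair of members stood in consecutive rows. Its transcripts had 2265 and 2381 TPM, and 2473 and 2552 TPM, in the bud samples, against 51.9 and 19.9 TPM, and 106 and 45.5 TPM, in the sphere samples. All 4 of these transcripts exceeded 1000 TPM in both bud samples, as did 18 members in all. The median distance between successive members was 140 rows, and 12 successive pairs were within 20 rows. The spacing of an equal number of other transcripts was not computed, so these numbers are not read as clustering. The 181 detectable transcripts next to a member that were not members had a median difference of 0.28 on the log2(TPM + 1) scale, against 0.00 for the 20228 detectable transcripts that were not members. Of the neighbours, 35.9% were at least 1 log2 unit higher at bud on that scale, against 27.2% of the 20228, and this difference was not tested.

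Between the bud samples the members differed by a median absolute log2 difference of 0.11. This was near the values of 0.12, 0.11 and 0.11 for transcripts that rose 4 to 8, 2 to 4 and under 2 times. The median was 0.14 for all transcripts at 5 TPM or more in both sphere samples and 0.35 for falls of 8 times or more. These classes were not matched for bud level. The rule also requires the lower bud value to pass, so close bud samples are not read as a trait of the members. The bud samples were within 1.2 times of each other for 81 members and more than 1.5 times apart for 3. Those 3 had 1521 and 3028 TPM, 453 and 965 TPM, and 118 and 187 TPM in bud samples 1 and 2. Of the 104 members, 47 were higher in bud sample 1 and the others in bud sample 2.

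The sphere samples differed more, and mostly in one direction. Between them the members had a median absolute log2 difference of 0.39. It was 0.19 for all 11377 transcripts of at least 5 TPM in both sphere samples. These were not matched to the members for sphere level, so the wider difference is not read as a trait of the members. The members' median level was 14.4 TPM at sphere and 249 TPM at bud, so the stages were not compared at matched level. Sphere sample 1 was higher than sphere sample 2 for 84 of the 104 members (80.8%), with a median of 1.26 times and a median log2 difference of 0.33. Both sphere samples enter the rule in the same way, so the direction of this difference was not used to choose the members. The samples were more than 1.5 times apart for 37 members, and 36 of these were higher in sample 1. They were more than 2 times apart for 13 members, all of them higher in sample 1. Of the 20 members that were lower in sample 1, 11 were lower by more than 1.2 times.

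Without matching for level, this difference was broadly graded with the direction and size of the change between the stages. Among the 31 members with a ratio of at least 16, 29 were higher in sphere sample 1, with a median of 1.43 times, and among the 73 members with a ratio from 8 to 16 it was 55, with a median of 1.19 times. Among other transcripts of at least 5 TPM at sphere, sample 1 was the higher one for 67.0% of the 324 that rose 4 to 8 times and for 64.04% of the 837 that rose 2 to 4 times, with rises measured as for the members. The share was 49.9% for 1677 transcripts that were higher at bud by less than 2 times. It was lower still among transcripts that were lower at bud, with 35.1%, 28.2%, 27.5% and 29.9% for falls of under 2, 2 to 4, 4 to 8 and at least 8 times. Between the lower and upper quartile of the members' sphere means, 8.94 to 27.7 TPM, the share was 82.7% for 52 members. It was 68.5%, 66.4% and 52.4% there for rises of 4 to 8, 2 to 4 and under 2 times. For falls of under 2, 2 to 4 (456 transcripts), 4 to 8 and at least 8 times it was 37.7%, 33.3%, 35.3% and 39.7%. At this matched level the falls were thus not ordered by size. Over all 11377 transcripts, at any level, the share was 38.9%. With 1 sample on either side, the difference between the sphere samples cannot be tested. According to the methods, the RNA came from the batch used for tRNA sequencing, whose replicates were collected on different days, so that collection day, exact stage, embryos and libraries cannot be told apart.

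**Figure D4:**
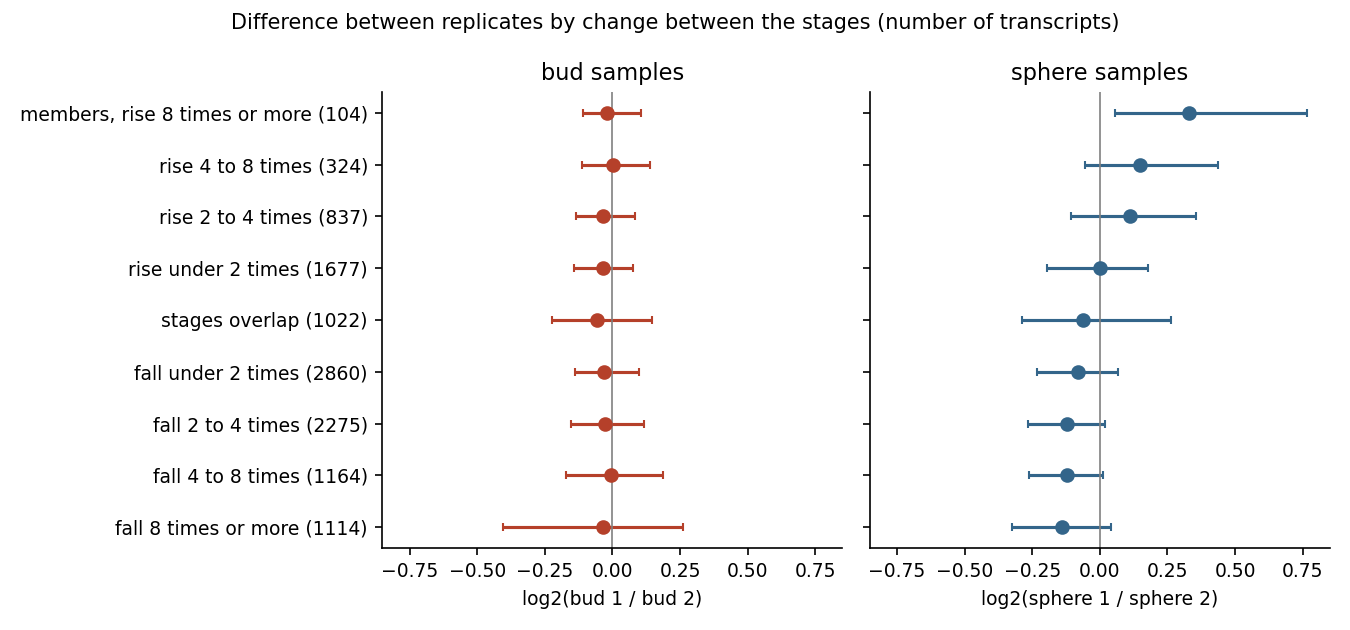
Median (point) and quartiles (bar) of log2(bud 1 / bud 2), left, and log2(sphere 1 / sphere 2), right, for all transcripts of at least 5 TPM in both sphere samples, split by how far the bud values lay above or below the sphere values, with the number of transcripts in each class, those at 0 TPM in a bud sample being left out on the left. At sphere, the median log2 difference fell in order from 0.33 in the members to 0.15 and 0.11 in the classes of smaller rises and -0.14 in the class of falls of 8 times or more, whereas at bud all medians lay between -0.06 and 0.00. The classes drawn were not matched for sphere level.

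The size of the rise therefore depended on the sphere sample used. The bud mean was a median of 13.1 times the value in sphere sample 1 and 16.6 times the value in sphere sample 2. With sphere sample 1 left out, 172 transcripts met the rule, and with sphere sample 2 left out, 167 did. With a bud sample left out the number was 117 or 118. Leaving out a sample can only loosen the rule, so all 104 members were kept by construction. When transcripts were chosen on the samples numbered 1 alone, 187 met the rule with a median ratio of 11.3, and in the samples numbered 2 their median ratio was 16.5, with 157 of them at 8 or more, 28 below 8 and 2 at 0 TPM in sphere sample 2. When they were chosen on the samples numbered 2 alone, 193 met the rule with a median ratio of 11.6. In the samples numbered 1, their median ratio was 9.50, with 120 of them at 8 or more and 73 below 8. Ratios in the other samples were read without the 5 TPM minimum. All 4 samples also entered the rule, and the numbering is not known to pair them. These numbers therefore do not measure how well the members reproduce.

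The thresholds cut through a continuous range. Just inside the 8-fold limit were members with ratios of 8.06, 8.08 and 8.17, and just outside it were transcripts with ratios of 7.99, 7.98 and 7.87. Among transcripts with names, the nearest below the limit was SPCS1, for a subunit of the signal peptidase complex, with 80.5 and 70.9 TPM at bud and 6.02 and 9.54 TPM at sphere. It was followed by NRARP, for an ankyrin repeat protein that limits Notch signalling, with 246 and 263 TPM at bud and 33.7 and 25.5 TPM at sphere. The next was RPS6, for a protein of the small ribosomal subunit, with 1627 and 1424 TPM at bud and 212 and 218 TPM at sphere, a ratio of 6.53.

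The minimum of 5 TPM at sphere left out many more transcripts than it kept. The 8-fold criterion alone was met by 2444 transcripts, including those at 0 TPM at sphere, of which 2340 were under 5 TPM in at least 1 sphere sample. The members just above the minimum had 5.05, 5.35 and 5.44 TPM in their lower sphere sample. Just below it, with a ratio of at least 8, were 3 named transcripts. DLC1 had 58.0 and 57.4 TPM at bud and 5.70 and 4.98 TPM at sphere. The tubulin gene tuba8l2 had 130 and 127 TPM at bud and 5.41 and 4.96 TPM at sphere. The homeobox gene msx1b, a target of BMP signals at the border of the neural plate, had 91.1 and 98.9 TPM at bud and 7.39 and 4.18 TPM at sphere.

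Lists of developmental genes for this stage could be read only in small part, because 32 of their 444 genes were matched to a transcript by name. Of these 32, 19 were called higher and 11 lower at bud (limma, Benjamini-Hochberg adjusted p under 0.05 over all 20332 transcripts tested), against 37.2% higher and 38.2% lower of all transcripts tested, and SPRY2 was the single member. Of the 6 matched genes of the BMP and Nodal pathway, 5 were higher and 1 was lower. The 4 matched genes of the list of maternal mRNAs, 2 of which also stood on a list of germ cell markers, were all lower at bud. Of the 4 matched genes of chromatin and the cell cycle, 3 were higher and 1 was lower. The lists of ventrolateral mesoderm, extracellular matrix and cytoskeleton each had 1 higher and 1 lower. The Wnt list had 0 higher and 1 lower. All matched genes were higher for the neural plate, the ribosomal proteins, Notch and the enveloping layer, the last at about 1 TPM or less at bud. The lists were chosen with earlier results known, so no enrichment is read from these counts.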

How the data were processed

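RNA-seq of 4 samples was analysed, 2 of bud (10 hpf) and 2 of sphere (4 hpf), mapped by their labels. The values the authors deposited are TPM, for 1 principal isoform per gene. The methods describe the reference as coding transcripts, but give it fewer transcripts than the 24573 deposited. A figure legend of the study gives 24573 for all reference transcripts. Ranks and shares of TPM hold within these 24573 only. The submitters' notes name Trim Galore 0.6.4, STAR 2.6.1c, featureCounts 1.6.2, DESeq2 1.38.1 and GRCz11, and the methods name Kallisto and RSEM for TPM. With a fixed total of 1000000 TPM per sample, depth cannot be read from the table, the methods give reads per library only as a range without naming samples, and no counting error is given. Replicates are separate pools of embryos, collected on different days as far as the methods state it. Stages were compared with limma 3.58.1 in R 4.3.3 on log2(TPM + 1), with a trend, keeping transcripts whose bud or sphere mean exceeded 0.5 TPM. Other values were computed in Python 3.11.15 with pandas 2.3.3.

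Gene identifiers came from a supplementary table of the study, part of which was read (1998 genes). A gene was paired with the transcript whose mean TPM matched the tabulated mean at both stages within a relative difference of 1.01e-05. This paired 1643 genes of 1643 above 0.5 TPM, each with 1 transcript, and 1580 had a symbol, spelled as in the table of gene names used here. No other value of that table was used. Named transcripts were all members with a symbol, the 3 with a symbol nearest outside each threshold, and 2 identifiers, those of the largest ratio and of the highest bud mean. The members, lists and tests were chosen with earlier results of these data known. Alternatives were other pseudocounts, filters, scalings, thresholds, a replicate block and samples left out. No sequences are shown, since none of these transcripts was matched to one.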

Additional observations from a re-analysis of the deposited data

How the results depend on the processing

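The number of members was 104 and depended most on the thresholds. It was 225 with a minimum of 2 TPM and 60 with a minimum of 10 TPM, 428 with a ratio of at least 4 and 31 with a ratio of at least 16, and 187 when stage means replaced the lower bud and higher sphere values. It ranged from 117 to 172 with 1 sample left out, highest without sphere sample 1, and was 187 and 193 in the samples numbered 1 and 2 alone. Fewer samples can only loosen the rule, so these numbers could not fall below 104. Median-of-ratios scaling gave 111, 103 of them members as deposited, and quantile normalization 150, with 101. The share of TPM held by the members at bud fell to 4.66% without the 100 most abundant transcripts, of which 9 were members. The median log2 ratio of the members lay between 3.58 and 4.01. The share higher in sphere sample 1, whose alternatives were chosen after seeing the data, was between 70.3% (ratio of at least 4) and 93.5% (at least 16).

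With the replicate block, 7600 transcripts were higher and 7824 lower at bud, against 7559 and 7772 without it, and 104 of the 104 members were called. Samples with the same number deviated together only weakly (r = 0.09 over 20332 transcripts). With 2 samples per stage, this value cannot show whether same-numbered samples shared a collection day. The main fit did not treat them as paired. The rule used this same contrast, so the number of members called under any setting is not read as stability of the calls. TPM hold no depth, 2 samples against 2 allow no exact two-sided permutation p below 0.333, and 95 members remain without a name.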
